A study of Mus musculus with 6 samples.

Results

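Ribosomal protein genes encode the proteins that, with ribosomal RNA, build the small (40S) and large (60S) subunits of the cytoplasmic ribosome. They are housekeeping genes whose messages are among the most abundant of a cell, because each ribosome needs one copy of nearly every protein. In the developing brain, where neural progenitors divide and young neurons grow, their products set how much protein a cell can make, and inherited loss of one copy of several of them causes Diamond-Blackfan anemia in humans. In the embryo brain counts, the members were all genes with a symbol that starts with Rpl or Rps followed by a digit, together with Rpsa, Rplp0, Rplp1 and Rplp2. Symbols that contain -ps, those that start with Rps6k (kinases) and Rps19bp1 were left out. The rule found 92 of 53801 genes, 37 named for the 40S and 55 for the 60S subunit. Of these, 85 are annotated as protein coding and 7 as pseudogenes.

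RNA-seq was performed on whole brains of 6 C57BL/6 mouse embryos at E16.5. The 3 Bahd1-KO embryos (genotype Bahd1-/-) carried a knock-out of Bahd1, which encodes a scaffold protein of repressive chromatin complexes. The 3 Bahd1-WT embryos (Bahd1+/+) came from the same kind of heterozygous matings. Each library is 1 embryo, and where 3 values of a genotype are given, they follow the order of replicates 1, 2 and 3. The question behind the comparison was whether brain gene expression depends on Bahd1 before birth.

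Bahd1-KO libraries held 61.7 to 78.9 and Bahd1-WT libraries 81.6 to 91.8 (each in units of 1e6 counts), and they differed in composition. Bahd1 had 2, 10 and 6 counts in Bahd1-KO replicates 1, 2 and 3 and 1971 to 3470 in the Bahd1-WT embryos. A class of genes, called untailed below, grouped genes of ribosomal RNA and other RNAs without a poly(A) tail with all mitochondrially encoded genes and Lars2. It thus also held some messages that code for proteins. This class took 49.8% of the counts of Bahd1-KO replicate 3, against 3.12 to 6.28% in the other 5 embryos. All 12 neuronal markers had counts, and their summed level was 2745 CPM (counts per 1e6 counts) in that embryo, against 9244 to 11350 in the others. All 8 lung markers had counts, and together they reached 1619 CPM in it, against 13.8 to 27.4. This library therefore stands apart, and values that move most without it are also given without it.

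Ribosomal protein messages were of unequal level. Levels are CPM on library totals scaled by the TMM (trimmed mean of M-values) method, and are compared between genes only per kilobase of a representative transcript. Of the 92 genes, 79 had a mean of at least 10 CPM, 32 of the 40S and 47 of the 60S subunit, and lay on 19 chromosomes. Their levels ran from 20.9 to 528 CPM per kilobase, with a median of 122. Rpl4, a core protein of the large subunit, was highest at 528 CPM per kilobase. It was followed by Rpl17 at 402, Rpl23 at 352, Rpl22 at 352 and Rps15a at 325. The level of Rpl4 was 695, 763 and 1059 CPM in Bahd1-KO, against 691, 743 and 922 CPM in Bahd1-WT replicates 1, 2 and 3. For each pair of neighbours among these 5, the ranges over embryos per kilobase overlapped.

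A further 6 genes were tested at lower levels. Rps4l, an Rps4x-like gene annotated as a transcribed processed pseudogene, had 1.98 to 13.5 CPM. The other 5 stayed under 1 CPM, and they were the 5 lowest genes tested per kilobase. Rpl36al reached 0.902, Rpl37rt 0.53 and Rpl24 0.51 CPM per kilobase, while the testis-associated paralog Rpl39l (0.0935) and the pseudogene Rps3a3 (0.0852) were lower still. Rpl24 encodes an ordinary 60S protein, but only 17 to 34 counts per embryo were assigned to it. In the annotation, 47.0% of its exon bases lie within a gene on the same strand, Gm28037 (0 counts in each embryo), and 81.2% of its 65-base windows, the read length, occur in other genes. For Rpl36al, which had 30 to 46 counts, these shares were 24.5% and 62.1%. Reads that fit more than 1 gene may not have been counted, so both levels are uncertain.

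Another 7 genes had fewer than 10 counts in all and were not tested. Rpl10l, the paralog of Rpl10 known from testis, had 0 counts in each embryo, which allows up to 0.00623 CPM over the 481756139 counts of the 6 libraries (3 counts, for counting error only). Rps12l1 also had 0 counts, but all of its 65-base windows occur in other genes, so its 0 sets no such limit. The muscle paralog Rpl3l had 0, 0 and 3 counts in Bahd1-KO embryos, against 4, 1 and 1 in Bahd1-WT replicates. Rps27rt, Rps3a2, Rpl6l and Rpl32l were the others.

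Shared sequence is common in this family, which has left many processed copies in the genome. Among the 79 genes over 10 CPM, the median share of 65-base windows found in another gene was 55.2%. It was over 50% in 46 genes. Across these 79 genes the rank correlation of this share with the level per kilobase was -0.09, a description over genes that are not independent. Values of members with a high share, such as Rps27 (98.6%) and Rpl5 (93.0%), may hold fewer reads than the gene made.

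**Figure D1:**
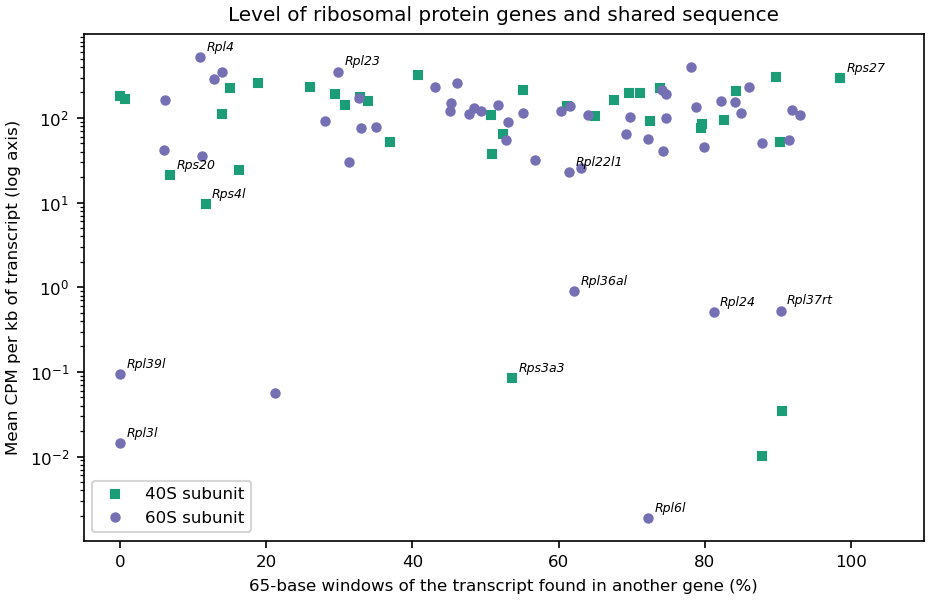
Mean level over the 6 embryos (CPM per kilobase of transcript, log axis) against the percent of 65-base windows of the transcript that occur in another annotated gene, 1 point per gene with at least 1 count; squares are 40S and circles 60S genes. Most genes lie between 20.9 and 528 CPM per kilobase at any share, while Rpl24, Rpl36al, Rpl37rt and several paralogs and pseudogenes lie below 1.

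Many ribosomal protein messages begin with a C followed by an unbroken run of pyrimidines, the terminal oligopyrimidine (TOP) motif, through which mTOR and LARP1 adjust their translation. RefSeq start sites of build GRCm38.p6 were available for 67 of the 92 genes. In 15 of the 67 (22.4%) the start base was C and at least 4 more pyrimidines followed, against 2.96% of 26958 other genes. Of the 15, 13 had a mean of at least 10 CPM, and the others were Rpl32l and Rps27rt, which were not tested. The count depends on the exact annotated start base, and in several windows below pyrimidines also stand directly before it. It may therefore miss messages that carry the motif. The 7 windows shown hold 10 bases before the start, then 15 from it on at the start of the first exon (5′ untranslated region), with the pyrimidine run in capitals. They were chosen to show genes that later differ in their spread between embryos.
Rplp2: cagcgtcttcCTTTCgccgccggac
Rpl35: ccgccctttcCTCTTTCTCTCgaac
Rpl28: tctcgtgtctCTCTTTCCgtctccg
Rps27: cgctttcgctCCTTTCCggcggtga
Rps6: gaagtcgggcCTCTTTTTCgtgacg
Rps15a: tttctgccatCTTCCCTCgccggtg
Rpl35a: gcttgccttcCTCTTTCCgccatct

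These windows lie at chr7:141447641-141447665 (Rplp2, plus strand), chr2:39005117-39005141 (Rpl35, minus), chr7:4792955-4792979 (Rpl28, plus), chr3:90213634-90213658 (Rps27, minus), chr4:86857353-86857377 (Rps6, minus), chr7:118116133-118116157 (Rps15a, minus) and chr16:33056472-33056496 (Rpl35a, plus). Over 300 bases, 250 before the start and 50 from it on, the letters CCGGAAG, searched on both strands, occurred at 26 of the 67 genes (38.8%) and at 9.86% of the other genes. CTCTTTCC, which can overlap the pyrimidine run, occurred at 10 of the 67 (14.9%) and at 3.54%. TATAAA occurred at 8 (11.9%) and at 15.7%, and the E-box letters CACGTG at 6 (8.96%) and at 8.09%. A match of letters is a description and does not show a site in use.

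No ribosomal protein gene was called as different between the genotypes. In the edgeR quasi-likelihood test with Benjamini-Hochberg adjustment over 24739 genes, 0 of the 85 genes tested passed the adjusted threshold of 0.05, with adjusted p from 0.696 to 0.983. Over all genes, 0.00404% passed, which is 1 gene, Bahd1 itself. At an unadjusted p under 0.05 the members numbered 0, against 4.67% of all genes tested. DESeq2 called 0 members adjusted, against 0.0323% of all genes, and 0 unadjusted, against 5.12%. In limma voom with quality weights, 0 members passed the adjusted threshold (0.0243% of all genes) and 11 of 85 (12.9%) had an unadjusted p under 0.05, against 8.95% of all genes in that fit. Without Bahd1-KO replicate 3, edgeR called 0 members adjusted (0.0171% of all genes) and 0 unadjusted (1.48%). Unadjusted p under 0.05 was reached by 21 of 85 members (24.7%) without Bahd1-KO replicate 2, against 20.2% of all genes. With the replicate number as a block and without Bahd1-KO replicate 3 it was reached by 20 (23.5%), against 9.3%.

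The log2 fold change (Bahd1-KO minus Bahd1-WT) was above 0 for 32 of the 85 genes and below 0 for 53. Its median was -0.19, against 0.06 over all genes tested. The sign of that median depended on the embryos and on a correction for GC content. It was 0.04 after that correction (0.12 over all genes) and 0.05 without Bahd1-WT replicate 3. Under each scaling of the libraries it stayed below 0. With total counts in place of TMM factors it was -0.36, where the median of all genes was -0.11, and with upper-quartile factors it was -0.07, against 0.17. After a correction for transcript length it was -0.01, against 0.19. The number of members above 0 was 19 with total counts, 42 with the length correction and 49 with the GC correction. The 34 genes tested of the 40S subunit (median -0.24) and the 51 of the 60S subunit (median -0.19) had similar values. In bulk tissue, fewer cells of a type and less RNA per cell cannot be told apart.

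**Figure D2:**
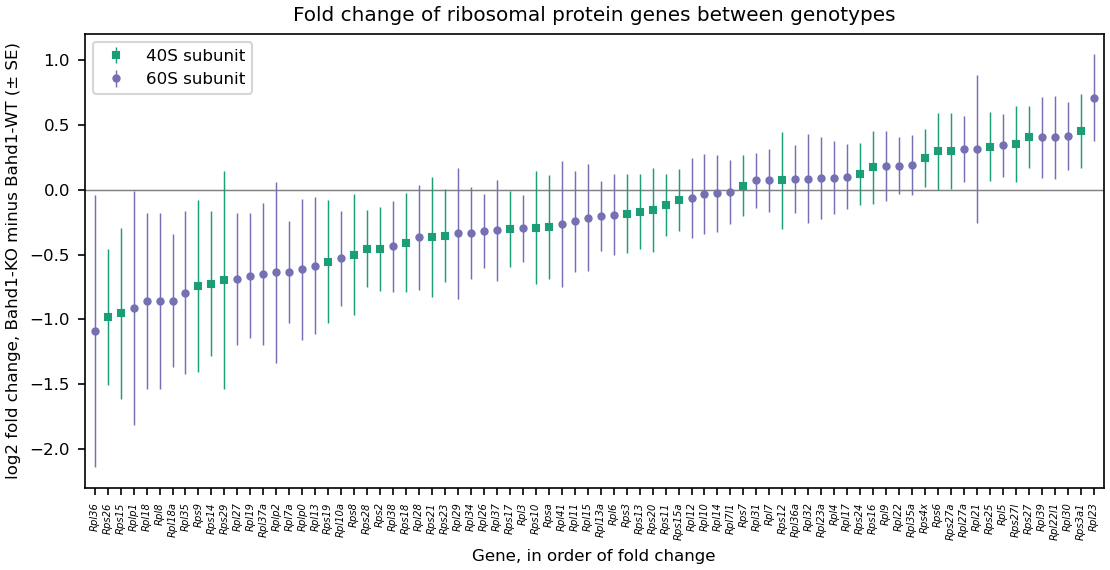
log2 fold change, Bahd1-KO minus Bahd1-WT, with its standard error from edgeR for 78 of the 79 genes with a mean of at least 10 CPM, in order; squares are 40S and circles 60S genes. Values run from -1.09 (Rpl36) to 0.71 (Rpl23), and the largest differences on the lower side carry the largest errors.

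The lowest fold changes belonged to genes that were also low in 1 of the Bahd1-WT embryos. Rpl36, a 60S protein, had 2.03, 25.04 and 2.95 CPM in Bahd1-KO, against 5.29, 28.0 and 30.8 CPM in Bahd1-WT replicates 1, 2 and 3. Bahd1-KO replicate 2 lay among the high Bahd1-WT embryos, and Bahd1-WT replicate 1 near the low Bahd1-KO embryos, so the groups overlapped. The log2 fold change of Rpl36 was -1.09 ± 1.05 (SE, n = 3 per genotype, edgeR adjusted p = 0.73), and it was -3.15 without Bahd1-KO replicate 2 and -0.61 without Bahd1-KO replicate 1.

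Rps26, a 40S protein at the exit of the messenger RNA channel, had 40.5, 125 and 50.8 CPM in Bahd1-KO, against 75.2, 167 and 186 CPM in Bahd1-WT. Again only replicate 2 was high among Bahd1-KO embryos, and it lay above Bahd1-WT replicate 1. The log2 fold change was -0.98 ± 0.52, and -1.69 without Bahd1-KO replicate 2. Rps15 (-0.95 ± 0.66), Rplp1 (-0.92 ± 0.90) and Rpl18 (-0.86 ± 0.68) completed the 5 lowest. Rps15, for example, had 37.4, 157 and 43.8 CPM in Bahd1-KO, against 71.5, 154 and 237 CPM in Bahd1-WT, low in the same 3 embryos.

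At the other end, Rpl23, a 60S protein that can also bind Mdm2, was the only member tested whose genotypes did not overlap. It had 358, 351 and 680 CPM in Bahd1-KO, against 311, 234 and 305 CPM in Bahd1-WT. Bahd1-KO replicate 3 was far above the other 5. The log2 fold change was 0.71 ± 0.34 (edgeR adjusted p = 0.70), and without that embryo it was 0.31. The part that the unusual composition of that library had in this value was not tested. Of all genes tested, 4.47% had Bahd1-KO values all above Bahd1-WT, against 1 of 85 members (1.18%). All Bahd1-KO values lay below Bahd1-WT in 2.24% of genes and in 0 of the members. The next 4 members by fold change were Rps3a1 (0.46 ± 0.28), Rpl30 (0.42 ± 0.27), Rpl22l1 (0.41 ± 0.32) and Rpl39 (0.41 ± 0.31). Without Bahd1-KO replicate 3 they had 0.21, 0.29, 0.45 and 0.55.

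The dominant pattern was a spread between single embryos that crossed the genotypes. Among the 79 genes over 10 CPM, the level in the highest embryo was 1.21 to 15.2 times that in the lowest, with a median of 2.12. Bahd1-WT replicate 3 was the highest embryo for 54 genes and Bahd1-KO replicate 3 for 16. Bahd1-KO replicate 1 was the lowest for 35 genes, Bahd1-WT replicate 1 for 15, and Bahd1-KO replicate 3 and Bahd1-WT replicate 2 for 14 each.

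Some embryos of different genotypes were closer in these levels than embryos of the same genotype. Between Bahd1-WT replicates 1 and 3, the median log2 difference over the 79 genes was 0.82, with 77 genes higher in replicate 3. Between Bahd1-KO replicates 1 and 2 it was 0.58, with 69 genes higher in replicate 2. Across genotypes, the median absolute log2 difference of Bahd1-KO replicate 1 was 0.22 to Bahd1-WT replicate 1. That of Bahd1-KO replicate 2 was 0.24 to Bahd1-WT replicate 2 and 0.30 to Bahd1-WT replicate 3. The smallest within a genotype was 0.26, between Bahd1-KO replicates 1 and 3. These pairs were singled out after their values were seen.

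**Figure D3:**
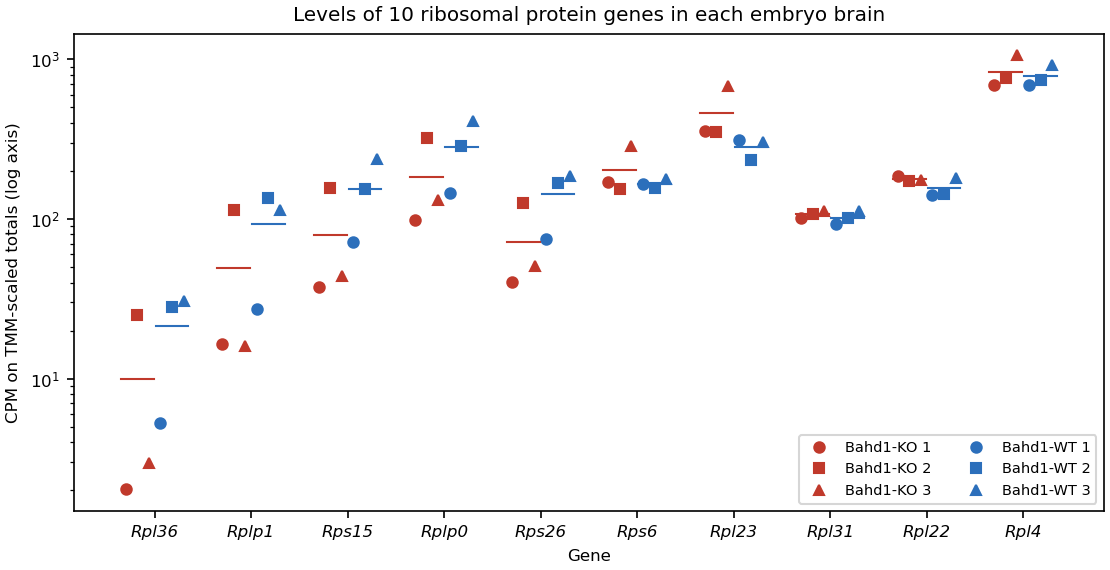
CPM on TMM-scaled totals (log axis) of 10 ribosomal protein genes in each embryo; red symbols are Bahd1-KO and blue Bahd1-WT embryos, circle, square and triangle are replicates 1, 2 and 3 (numbers do not pair embryos), and lines are genotype means. For Rpl36, Rplp1, Rps15, Rplp0 and Rps26, Bahd1-KO replicate 2 lies with Bahd1-WT replicates 2 and 3, while Rpl31 stays within 92.7 to 112 CPM.

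The stalk of the 60S subunit, made of Rplp0, Rplp1 and Rplp2, recruits and activates translation factors. Rplp0 had 98.9, 322 and 131 CPM in Bahd1-KO, against 145, 287 and 412 CPM in Bahd1-WT. Rplp1 had 16.5, 115 and 16.0 CPM in Bahd1-KO, against 27.5, 136 and 114 CPM in Bahd1-WT. Rplp2 had 16.5, 76.0 and 20.5 CPM in Bahd1-KO, against 23.2, 68.5 and 84.1 CPM in Bahd1-WT. All 3 genes were low in the same embryos, Bahd1-KO replicates 1 and 3 and Bahd1-WT replicate 1, and the genotypes overlapped for each. Their log2 fold changes were -0.62 ± 0.55, -0.92 ± 0.90 and -0.64 ± 0.70. They were -1.33, -2.55 and -1.71 without Bahd1-KO replicate 2, -0.31, -0.50 and -0.28 without Bahd1-KO replicate 1, and -0.24, -0.75 and -0.29 without Bahd1-WT replicate 3.

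Rps29, Rpl31 and Rpl15 fall outside the naming rule and were chosen after their values were seen. Rps29 had the widest spread after Rpl36, with 21.8, 123 and 15.03 CPM in Bahd1-KO, against 39.9, 76.5 and 143 CPM in Bahd1-WT. In contrast, Rpl31 had 101, 108 and 112 CPM in Bahd1-KO, against 92.7, 101 and 112 CPM in Bahd1-WT, the narrowest of the 79. Rpl22 was nearly as even, with 185, 172 and 175 CPM in Bahd1-KO, against 142, 144 and 181 CPM in Bahd1-WT. The log2 fold change of Rpl22 was 0.19 ± 0.22. Rpl15 had another pattern, with 184, 176 and 64.9 CPM in Bahd1-KO, against 192, 131 and 171 CPM in Bahd1-WT, low only in Bahd1-KO replicate 3.

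The order of embryos went with the GC content of the transcript. Over the 79 genes, GC content ran from 40.6 to 60.8% (median 51.8%). The rank correlation across genes between GC content and the log2 level of an embryo relative to the mean of the 6 was -0.69, 0.64 and -0.66 in Bahd1-KO embryos, against -0.52, 0.70 and 0.69 in Bahd1-WT replicates 1, 2 and 3. Over 14287 other genes with a mean log2 CPM above 0 it had the same signs, at -0.72, 0.51, -0.26, -0.46, 0.67 and 0.62. The genes of an embryo share 1 library, so these are descriptions. The difference between the highest and the lowest embryo (log2) rose with GC content across the members (rank correlation 0.62) and was little related to transcript length (-0.17).

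**Figure D4:**
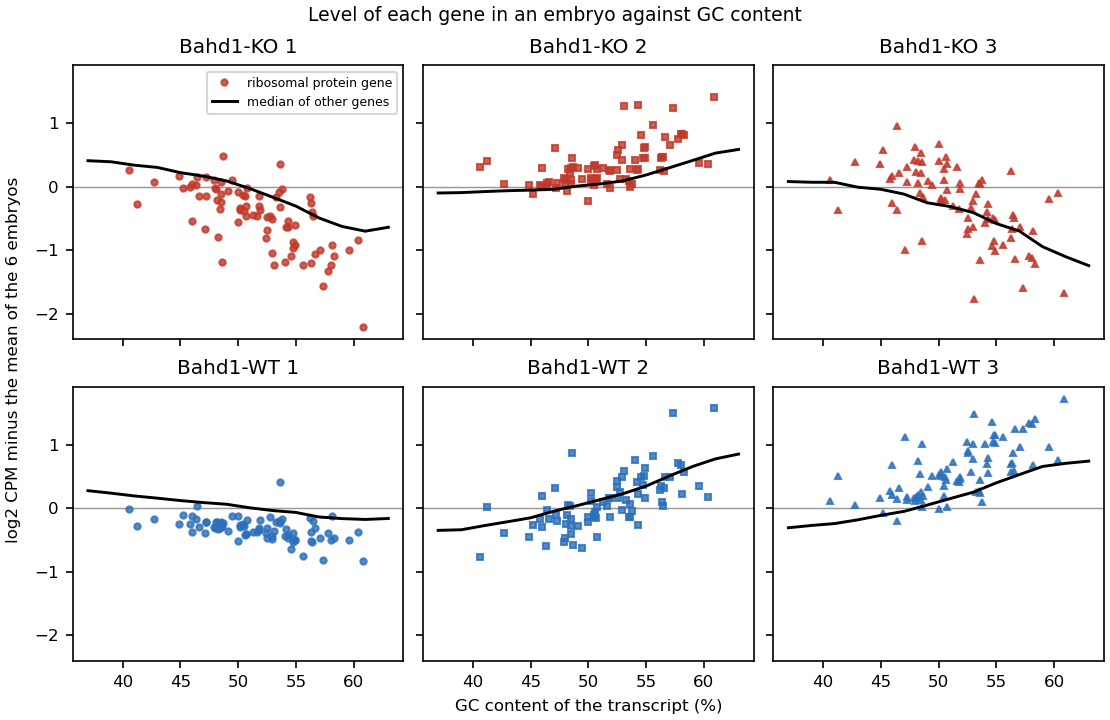
log2 CPM of each gene in an embryo minus its mean over the 6 embryos, against the GC content of the transcript, 1 panel per embryo; points are the 79 ribosomal protein genes and the black line is the median of other genes over 10 CPM in 2-point bins of GC content. Points fall with GC content in Bahd1-KO replicates 1 and 3 and Bahd1-WT replicate 1 and rise in the other 3 embryos.

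In the 26 members with the highest GC content (53.8 to 60.8%), the median log2 level relative to the 6-embryo mean was -0.94, 0.54 and -0.65 in Bahd1-KO embryos, against -0.47, 0.39 and 0.99 in Bahd1-WT replicates 1, 2 and 3. This set holds Rpl36, Rplp1, Rplp2, Rps15, Rpl18, Rpl35 and Rpl28. In the 27 genes with the lowest GC content (40.6 to 49.5%), which hold Rpl23, Rpl5, Rps24, Rpl22, Rps15a and Rps26, it was -0.02, 0.10 and 0.17 in Bahd1-KO embryos, against -0.24, -0.25 and 0.20 in Bahd1-WT. The log2 fold change between genotypes moved with GC content as well, with a median of 0.18 (20 of 27 above 0) in the lowest set and -0.57 (2 of 26 above 0) in the highest. Rps26, in the lowest set at 48.6%, was an exception, with -0.98, or -0.96 with the GC correction. Its range over embryos (log2) was 2.20, or 2.30 with that correction. Other genes over 10 CPM in the same spans of GC content had medians of 0.07 (4287 genes) and -0.52 (2510 genes).

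**Figure D5:**
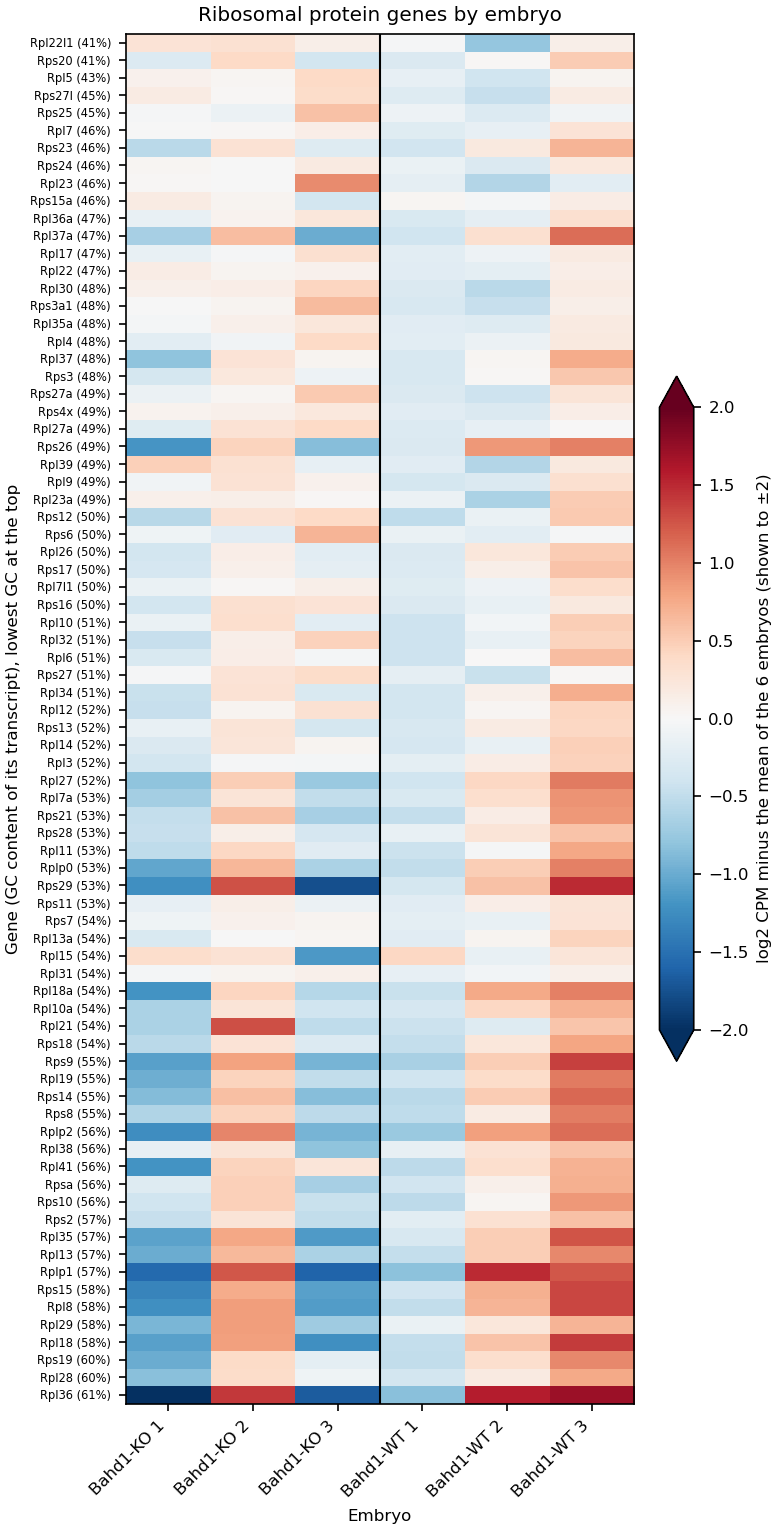
log2 CPM minus the mean of the 6 embryos for 78 of the 79 ribosomal protein genes over 10 CPM, 1 row per gene, ordered by the GC content of the transcript from lowest (40.6%) to highest (60.8%); red is above and blue below the gene's mean, and a black line separates the genotypes. The lower rows alternate between embryos within each genotype, whereas most upper rows stay pale.

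Part of the shared movement was left after a lowess correction of each embryo for GC content. The median range over the 79 genes went from 1.09 to 0.96 (log2), and the number with a range over 2 went from 16 to 5. The correction did not remove the whole link with GC content in these genes. Their rank correlation with it was still -0.22, 0.25 and -0.36 in Bahd1-KO embryos, against 0.07, 0.20 and 0.21 in Bahd1-WT. Over the other genes it was -0.02 to 0.01. The median level of the members relative to their 6-embryo mean was then -0.32, 0.19 and 0.04 in Bahd1-KO embryos, against -0.31, -0.09 and 0.36 in Bahd1-WT replicates 1, 2 and 3. Thus Bahd1-KO replicate 1 and Bahd1-WT replicate 1 remained below the rest and Bahd1-WT replicate 3 above it, again across genotypes. After the correction, 49 of the 85 members (57.6%) had a log2 fold change above 0, against 58.7% of all genes, and 1 (1.18%) had an unadjusted p under 0.05, against 4.02%.

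The movement can be set beside other gene sets of housekeeping character. The median range over embryos (log2) was 1.09 for the ribosomal protein genes, 0.76 for 77 mitochondrial ribosomal protein genes, 0.82 for 32 proteasome subunits, and 1.12 for 10068 other genes over 10 CPM. A range over 2 was seen in 20.3% of the ribosomal protein genes, 3.9% of the mitochondrial ones, 9.38% of the proteasome genes and 19.3% of the other genes. With the GC correction the median ranges of these sets were 0.96, 0.61, 0.70 and 0.84. Ranges over 2 then numbered 5 of 79, 0 of 77, 0 of 32 and 1341 of 10068. The mitochondrial and proteasome genes were taken from a mean log2 CPM above 0, a lower limit than the 10 CPM asked of the ribosomal protein genes. In the mitochondrial and proteasome sets the range fell with level (rank correlations -0.55 and -0.62), and in the ribosomal protein genes less so (-0.32). Transcripts of the ribosomal protein genes had a median GC content of 51.8% and a median length of 729 bases, against 50.1% and 1280 bases for the mitochondrial set.

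Cell composition markers also varied between embryos. All 6 choroid plexus markers had counts, and their summed level was 304, 795 and 152 CPM in Bahd1-KO, against 363, 438 and 757 CPM in Bahd1-WT replicates 1, 2 and 3. All 8 blood markers had counts, with 162, 594 and 429 CPM in Bahd1-KO, against 133, 356 and 503 CPM in Bahd1-WT. Both sums were low in Bahd1-KO replicate 1 and Bahd1-WT replicate 1 and high in Bahd1-KO replicate 2 and Bahd1-WT replicate 3, while Bahd1-KO replicate 3 had the lowest choroid plexus sum. Single markers did not all follow the sums. Of the 6 choroid plexus markers, 2, 3, 6 and 4 lay above their mean log2 level in these first 4 embryos, in that order. Of the 8 blood markers it was 3, 0, 8 and 5. All 12 markers of dividing progenitors had counts, with sums of 798 to 1331 CPM in Bahd1-KO and 779 to 1079 CPM in Bahd1-WT. The part of cell composition in the ribosomal protein levels was not tested.

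As a share of all counts, the members held 0.784, 1.17 and 0.632% in Bahd1-KO embryos, against 0.775, 0.997 and 1.41% in Bahd1-WT replicates 1, 2 and 3. The means were 0.862 ± 0.277% and 1.06 ± 0.321% (SD, n = 3). The genotypes overlapped, and both Bahd1-KO replicate 1 and Bahd1-WT replicate 1 were low. With the untailed class left out of the total, the share of Bahd1-KO replicate 3 was 1.26%. On that denominator the Bahd1-KO mean exceeded the Bahd1-WT mean by 0.0032 percentage points. Processed pseudogenes with -ps in their symbol held 0.0618 to 0.0957% of the summed member and pseudogene counts. Within the members, 40S genes made up 40.2, 41.1 and 37.4% in Bahd1-KO embryos, against 40.3, 41.3 and 41.9% in Bahd1-WT. Only Bahd1-KO replicate 3 lay below 40%.

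Genes linked to Diamond-Blackfan anemia and to nucleolar surveillance formed a list of 10, of which 4 had a log2 fold change above 0, 6 below, and 0 passed the test. The median was -0.27, but with the GC correction it was 0.10 (7 of 10 above 0) and without Bahd1-WT replicate 3 it was 0.15 (6 of 10). Rps19, the gene most often affected in that disease, had 18.6, 48.1 and 32.2 CPM in Bahd1-KO, against 26.2, 46.9 and 72.4 CPM in Bahd1-WT, with overlapping genotypes and a log2 fold change of -0.56 ± 0.47 (0.17 with the GC correction). Rpl5 and Rpl11 bind the 5S ribosomal RNA and can restrain Mdm2, the inhibitor of p53. Rpl5 had 231, 226 and 288 CPM in Bahd1-KO, against 195, 166 and 227 CPM in Bahd1-WT (0.34 ± 0.24). Rpl11 had 76.2, 144 and 92.5 CPM in Bahd1-KO, against 80.1, 106 and 184 CPM in Bahd1-WT (-0.24 ± 0.39, or 0.16 without Bahd1-WT replicate 3). Neither gene separated the genotypes.

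Rps6, the 40S protein phosphorylated by S6 kinases, had 170, 154 and 288 CPM in Bahd1-KO, against 165, 156 and 178 CPM in Bahd1-WT. It was high in Bahd1-KO replicate 3 alone, and its log2 fold change was 0.30 ± 0.30, or -0.05 without that embryo. Rpsa, the 40S protein also known as the laminin receptor, had 137, 227 and 103 CPM in Bahd1-KO, against 126, 176 and 269 CPM in Bahd1-WT (-0.29 ± 0.40). For Rpsa the log2 fold change was -0.07 without Bahd1-KO replicate 3, and it turned to 0.17 with the GC correction and to 0.04 without Bahd1-WT replicate 3. Of the genes on the X chromosome, Rps4x (0.24 ± 0.22), Rpl36a (0.08 ± 0.26) and Rpl39 (0.41 ± 0.31) had values above 0 and Rpl10 (-0.03 ± 0.31) below. None of the 4 passed the test, and the signs of Rpl36a and Rpl10 turned with single embryos left out, for example to -0.01 and 0.06 without Bahd1-KO replicate 3.

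Rps27a is made as a fusion with ubiquitin, and Fau as a fusion with a ubiquitin-like protein. Rps27a had 113, 126 and 178 CPM in Bahd1-KO, against 100, 92.5 and 146 CPM in Bahd1-WT. Rps27a had a log2 fold change of 0.30 ± 0.29, which was 0.08 without Bahd1-KO replicate 3. Fau and Rack1, ribosomal proteins under other names, are no members by symbol. Fau had 16.7, 50.1 and 24.0 CPM in Bahd1-KO, against 23.1, 53.1 and 72.9 CPM in Bahd1-WT, low in the same 3 embryos as the stalk genes. Rack1, a scaffold on the 40S subunit, had 162, 317 and 166 CPM in Bahd1-KO, against 184, 319 and 443 CPM in Bahd1-WT.

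Several ribosomal proteins have a paralog, which in some cases can take the place of the parent in the ribosome. The ratios given here are of messages and do not show such an exchange, and Rps4l is annotated as a pseudogene. The ratio of paralog to parent, per kilobase of transcript, was computed for 6 pairs and tested between genotypes by an exact two-sided permutation test, which cannot give a p below 0.1 with 3 embryos against 3. Rpl22l1 stood at 6.84, 7.52 and 6.48% of Rpl22 in Bahd1-KO and at 7.30, 4.25 and 6.25% in Bahd1-WT. Rpl7l1 stood at 14.6 to 15.9% of Rpl7 in Bahd1-KO and 15.9 to 16.7% in Bahd1-WT. Over the 6 embryos, Rps27l stood at 6.91 to 9.42% of Rps27, Rpl36al at 0.506 to 1.16% of Rpl36a and Rpl39l at 0.206 to 0.494% of Rpl39. Rps4l moved most, at 1.73, 9.29 and 1.65% of Rps4x in Bahd1-KO embryos, against 4.03, 14.6 and 11.3% in Bahd1-WT. Its mean log2 ratio was 1.55 lower in Bahd1-KO, with overlapping genotypes (exact permutation p = 0.2, adjusted over 6 pairs 0.6). The exact permutation p was 0.2 to 1 over the 6 pairs, and the genotypes overlapped in each. Rps4l has a GC content of 61.3% and Rps4x 48.5%, and the part of GC content in their ratio was not tested.

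Genes that act with ribosomal proteins were described from further lists. Of 20 other messages known to carry a TOP motif, 9 had a log2 fold change above 0 and 11 below, with a median of -0.12. Eef2, the elongation factor of translocation, had 506, 1276 and 564 CPM in Bahd1-KO, against 729, 1555 and 1739 CPM in Bahd1-WT (-0.78 ± 0.49). It was low in the same 3 embryos as the stalk genes. Eif3e, which had the smallest p of this list, was above 0 (0.43 ± 0.26). Of 46 ribosome biogenesis genes, 34 were below 0 (median -0.17), among them Bop1 (-0.99 ± 0.54) and Rrp1 (-0.63 ± 0.31). Of 20 genes of the RNA polymerase I machinery, 16 were below 0 (median -0.32), including Ubtf, the factor that binds ribosomal DNA (-0.53 ± 0.33). Taf1d, which had the smallest p of that list, was above 0 (0.53 ± 0.27). None of these genes passed the test. Without Bahd1-KO replicate 3, the medians of these 3 lists were -0.09, -0.04 (26 of 46 below 0) and -0.12. The median of the TOP list turned to 0.05 with the GC correction. With that correction, Eef2, Bop1, Rrp1 and Ubtf had log2 fold changes of -0.294, -0.485, -0.197 and -0.185.

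Among 20 regulators of ribosomal protein synthesis, 6 were above 0 and 14 below, with 0 past the adjusted threshold. The median was -0.48, or -0.20 without Bahd1-KO replicate 3 and -0.13 with the GC correction. Eif4ebp1, a translation repressor that mTOR inactivates, had 2.69, 3.49 and 6.34 CPM in Bahd1-KO, against 1.01, 1.91 and 2.17 CPM in Bahd1-WT. All Bahd1-KO embryos lay above all Bahd1-WT embryos, with a log2 fold change of 1.298 ± 0.495 and an edgeR adjusted p of 0.70. Without Bahd1-KO replicate 3 it was 0.86. Mtor (-0.60 ± 0.29) and Tsc2 (-0.67 ± 0.33) followed by unadjusted p. Of 15 genes of the p53 response, 9 were above 0 and 6 below (median 0.15, or 0.03 to 0.09 with 1 embryo left out and -0.07 with total counts), and none passed the test. The median log2 fold changes of the mitochondrial ribosomal proteins (59 of 78 below 0) and the proteasome subunits (28 of 32 below 0) were -0.17 and -0.21, beside the -0.19 of the ribosomal protein genes. With the GC correction they were -0.11 and -0.21, while the members had 0.04, and without Bahd1-KO replicate 3 they were -0.07 and -0.09, while the members had -0.14.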

How the data were processed

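The authors deposited raw counts of reads per gene for the brains of 6 embryos, 3 per genotype. Per the labels and the study's methods, total RNA was cleared of RNAs under 200 nucleotides, polyadenylated RNA was made into TruSeq libraries and read as 65-base single-end reads in 3 technical runs. The submitters' processing notes name Cutadapt 1.11, STAR 2.5.0a, featureCounts 1.4.6-p3 and GRCm38. TopHat2 is named as well, and which aligner made this table is not stated. Counting was by gene, over exons, on 1 strand. All 6 columns were mapped to samples by their names.

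The members and gene lists were chosen with earlier results of these data known. The 24739 genes with a summed count of 10 or more entered the edgeR 4.0.16 quasi-likelihood test (R 4.3.3), two-sided, with TMM factors, genotype as the single term and Benjamini-Hochberg adjustment at 0.05. Lists were described by counts and medians, with no test of a list. Log2 levels used a prior count of 0.5. GC content and length came from 1 representative transcript per gene in GENCODE M21 (53706 of 53801 genes matched). The GC correction was a lowess of span 0.3 per embryo, entered as an offset. DESeq2 1.42.0 and limma 3.58.1 were alternatives. Scripts were tested on simulated data. Genes were named by rule: the 5 highest and lowest per kilobase, the 5 largest and smallest fold changes over 10 CPM, non-overlapping members, the role lists, Rps6 and Rpsa, and up to 3 genes by p of other lists. Same-numbered embryos correlated at 0.31, 0.37 and -0.14 in their deviations, so numbers were not taken as pairs. Labels call the embryos biological replicates. Values of 2 genes are not reported here, and 1 of them is not drawn in the plots that name genes.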

Additional observations from a re-analysis of the deposited data

How the results depend on the processing

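Under each other setting, 3 of them added after seeing the data, 0 ribosomal protein genes were called. The number called over all genes was 1, and it was 0 with at least 10 counts in every embryo, with the untailed class left out, with the length correction, with the replicate block and with the replicate block plus GC correction. It was 8 with DESeq2 and 6 with voom, and 0 to 4 with 1 embryo left out. Without Bahd1-KO replicate 3 it was 6 with the GC correction, 11 with DESeq2 and 16 with the replicate block, and the cause was not tested. The median log2 fold change of the members was -0.16 with the replicate block and 0.08 with the block but without Bahd1-KO replicate 3, and -0.43 to 0.05 with 1 embryo left out. The difference in the share of counts (Bahd1-KO minus Bahd1-WT, percentage points) was -0.20, and 0.0032 without the untailed class in the total. The log2 ratio of Rpl39l to Rpl39 differed by 0.11 between genotypes, and by -0.23 to 0.33 with 1 embryo left out, below 0 without Bahd1-KO replicate 3 (-0.23) or Bahd1-WT replicate 3 (-0.12). That of Rps27l to Rps27 differed by -0.04, and by -0.15 to 0.077 with 1 embryo left out, above 0 without Bahd1-KO replicate 2 (0.077) or Bahd1-WT replicate 3 (0.019). Low counts limit what can be said of Rpl24, Rpl36al, Rpl37rt, Rpl39l and Rps3a3.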
